A study of Mus musculus with 8 samples.

Results

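The genes described here are 34 mouse genes of the lysosome and of the proton pump that acidifies it. They were taken by symbol from a list of lysosomal genes and matched to the Ensembl identifiers of the count tables, so that 34 of 49315 identifiers in the tables are members. All 34 passed the filter on low counts that left 14909 genes for testing, and the lowest count of any member in any library was 39. By role they comprise 9 proteases, 6 glycosidases, 3 lipid hydrolases, 3 luminal cofactors and lipid carriers, 5 membrane proteins, 6 pump subunits and 2 transcription factors. The proteases, glycosidases and lipid hydrolases are called the hydrolases below (18 genes), and they were set against the membrane proteins and pump subunits (11 genes).

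RNA was sequenced from neutrophils of C57BL/6 mice, an inbred strain, aged 2 months. The mice were wild type or deficient in H2R, the histamine H2 receptor, and the cells had been drawn into the peritoneal cavity with casein and separated into a high-density and a low-density population. Each of the 4 combinations of genotype and density had 2 libraries, numbered 2 and 4 in wild-type and 1 and 2 in H2R-deficient mice, and held 19862716 to 24199215 counts per library. The labels give neither the deleted stretch of the receptor gene nor the animals behind each library, and p-values therefore cover the variation among these libraries alone, part of which may be technical.

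Lysosomes are acidic organelles in which proteases, glycosidases and lipid hydrolases break down material taken up from outside or delivered by autophagy. The vacuolar proton pump, built from a membrane-embedded sector and a cytosolic sector that hydrolyses ATP, sets the low pH at which these enzymes work. The transcription factors TFEB and TFE3 bind E-box sequences with a CACGTG core near the start of many lysosomal genes, and in neutrophils the lysosome stands beside the azurophil granules as a store of hydrolases.

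Promoter windows were examined for that core, because it is the sequence through which the transcription factors among the members are known to act on the others. RefSeq windows on the GRCm38.p6 build, from 250 bases before to 50 bases after a gene's start, were at hand for 28 of the 34 members. CACGTG, which reads the same on both strands, occurred in windows of 11 of those 28 members (39.3%) and of 2187 of 27025 genes (8.09%). The longer TCACGTGA, which contains it, occurred in 6 of 28 members (21.4%) and 1.12% of genes, and the CLEAR consensus element, which contains both, in 0 of 28 members and 0.37% of genes. The 11 members were Ctsa, Ctsd, Ctsl, Lgmn, Gaa, Glb1, Gla, Lamp1, Mcoln1, Atp6v0d1 and Atp6v1a. A match describes the letters only and shows no binding.

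The stretches below carry the core (in capitals) outside any annotated exon and stand for a protease and a glycosidase whose transcripts were higher at low density in H2R-deficient cells (Lgmn, Glb1), the member with the most copies of the core (Lamp1) and a pump subunit (Atp6v1a). They lie at chr12:102439106-102439171 (minus strand), chr9:114401000-114401065 (plus strand), chr8:13159086-13159151 (plus strand) and chr16:44139355-44139420 (minus strand), in that order. The Lgmn stretch precedes the second of 2 RefSeq starts of that gene, and the RefSeq starts used for Lgmn and Atp6v1a lie inside the genes as GENCODE M21 draws them.
Lgmn: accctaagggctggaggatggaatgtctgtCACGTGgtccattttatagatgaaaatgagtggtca
Glb1: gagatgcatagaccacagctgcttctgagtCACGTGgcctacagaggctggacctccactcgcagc
Lamp1: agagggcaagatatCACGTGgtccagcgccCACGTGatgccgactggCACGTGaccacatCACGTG
Atp6v1a: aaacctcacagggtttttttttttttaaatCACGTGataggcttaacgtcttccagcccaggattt
Lamp1 holds 4 copies within this stretch, where the other 3 stretches hold 1 each.

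Some facts of the libraries bear on every value below. Transcripts of Hrh2, which encodes the deleted receptor, were present in all libraries, at 118 and 41.3 CPM (counts per 1000000 counts of the scaled library) in wild-type and 35.0 and 17.5 in H2R-deficient high-density cells, and 22.5 and 32.5 against 12.0 and 7.59 in low-density cells. Neither genotype difference of Hrh2 passed the test (edgeR adjusted p = 0.192 and 0.196). CPM values other than sums of markers are over library sizes scaled by TMM, which assumes that most genes do not differ. The TMM factors were 0.742 to 0.808 in high-density and 1.11 to 1.49 in low-density libraries. Scaled by total counts instead, the median gene was 0.67 higher on the log2 scale at low than at high density in wild-type and 1.0 higher in H2R-deficient cells, where TMM gave 0.10 in both. A direction between densities therefore holds relative to the other genes, and the values of named genes from total counts are given beside those from TMM. The 11 neutrophil markers summed to 56170 to 59120 CPM of all counts in high-density and 30088 to 53551 in low-density libraries.

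Markers of other cell types also moved with density. All sums of markers, here and below, are CPM of all counts without TMM scaling unless TMM is named. The 8 B cell markers summed to 33.6 to 48.5 CPM in high-density and 207 to 1252 in low-density libraries, and all 8 rose in both genotypes, also with total counts. The 10 dendritic cell markers went from 9.52 to 28.7 up to 241 to 961 CPM, with 6 of the 9 tested rising in each genotype. Macrophage markers summed to 265 to 591 CPM at high and 408 to 622 at low density. With TMM scaling the macrophage sums were instead lower at low density in each genotype. They were 761 and 648 at high against 500 and 450 at low density in wild-type cells, and 532 and 357 against 359 and 304 in H2R-deficient cells. Of the 15 macrophage markers 7 rose and 2 fell in H2R-deficient cells (10 and 1 with total counts), while 0 were called in wild-type cells (1 rose with total counts). T and NK cell markers summed to 4.81 to 12.1 CPM at high and 28.0 to 60.0 at low density. Erythroid markers went the other way, from 21.6 to 183 CPM at high density to 0.165 to 1.66 at low density. Mast cell markers summed to 26.3 to 41.1 CPM at high and 21.5 to 26.5 at low density, with 3 of 5 lower in H2R-deficient and 1 in wild-type cells, and of 4 tested eosinophil markers 2 were lower and 1 higher in each genotype; with total counts 0 markers of these 2 lists were lower. Every list had counts for all of its markers in at least 1 library, and of the defining markers Epx (eosinophils) was at 0 in 7 libraries. The part of these cells in the results below was not tested, and in bulk RNA fewer cells of a type and less RNA per cell cannot be told apart.

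The members took 1.16% to 1.97% of all counts. Compared per kilobase of exon, the highest levels over the 8 libraries were those of Psap, the precursor of the saposins that present lipids to hydrolases, at 979 CPM per kilobase, Ctsd (844), Ctsb (608) and Ctsz (547), which encode the cathepsins D, B and Z. Lamp1, an abundant glycoprotein of the lysosomal membrane, followed at 200, then Laptm5 at 169, a lysosomal membrane protein of blood cells, and the pump subunits Atp6v0c (152) and Atp6v0d1 (144). At the other end stood Smpd1, the acid sphingomyelinase, at 1.79 and Glb1, the beta-galactosidase, at 2.19. The 6 pump subunits lay between 152 and 5.30, the lowest being Atp6v1h.

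**Figure D1:**
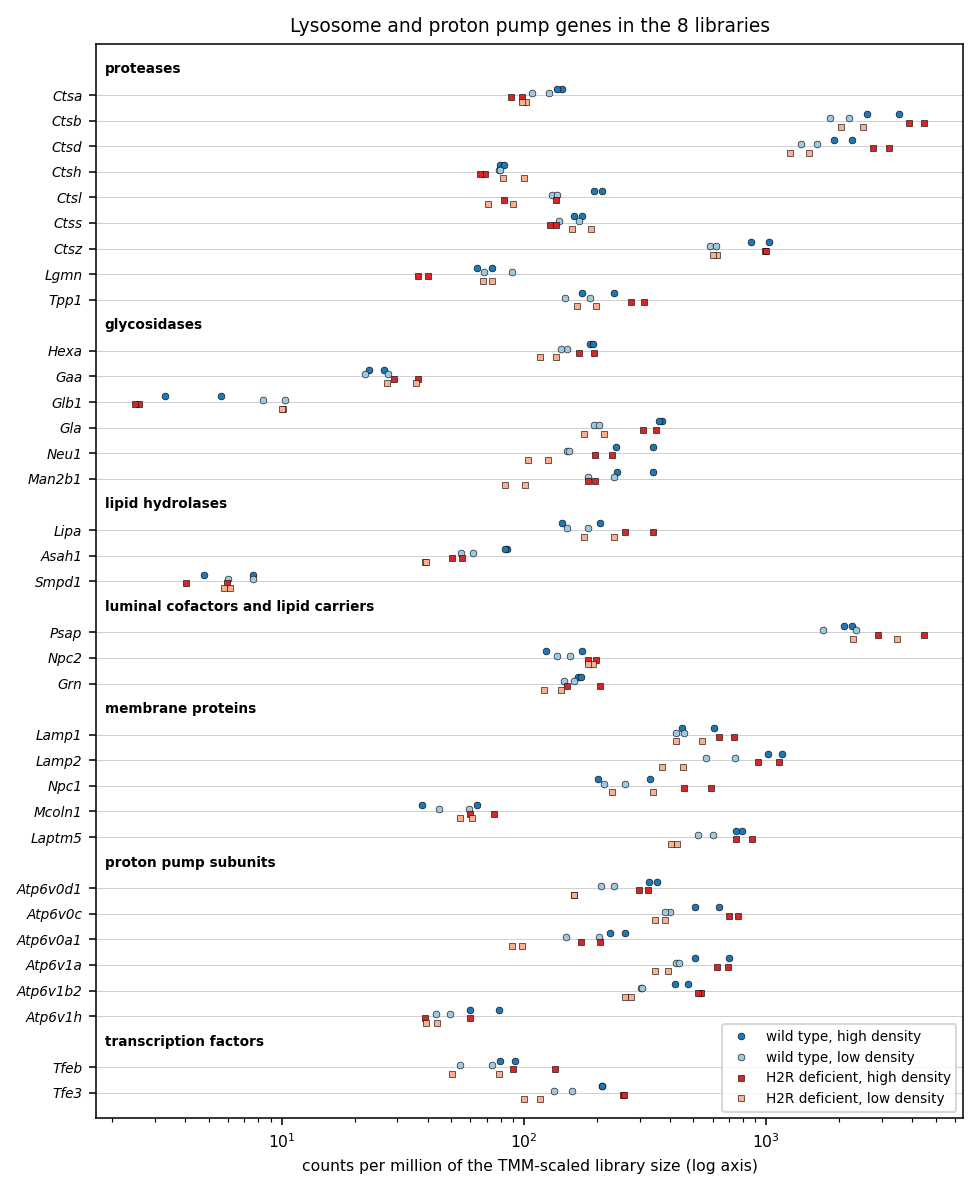
Level of each of the 34 members in the 8 libraries, in CPM of the TMM-scaled library size on a log axis, with 1 point per library and members grouped by role. Glb1 lies at 3.30 and 5.60 (wild type) and 2.57 and 2.49 (H2R deficient) at high density, below all 4 low-density libraries (8.38 to 10.3), whereas both H2R-deficient low-density libraries of Tfe3, at 99.5 and 116, lie below all 4 high-density libraries (209 to 259).

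Whether low-density and high-density neutrophils differ in their lysosomal transcripts was asked in each genotype. In wild-type cells 1 member rose and 4 fell with low density under TMM scaling, and with total counts 3 rose and 0 fell. That is 14.7% of the members called against 12.7% of all genes; 11.8% of members against 4.15% of all genes fell, and 2.94% against 8.51% rose. In H2R-deficient cells 2 members rose and 19 fell under TMM scaling, and with total counts 10 rose and 0 fell. There 61.8% of members were called against 54.0% of all genes; 55.9% against 23.9% fell and 5.88% against 30.0% rose. With total counts 32.3% of all genes rose in wild-type cells and 0.832% fell, against 51.6% and 2.61% in H2R-deficient cells.

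A change of scaling shifts all genes by nearly the same log2 amount. Values set against the median of all genes, here and below, are therefore nearly equal under both scalings by construction. Set against the other genes, the members were low at low density. Their median change was 0.53 below the median of all genes in wild-type cells with TMM and 0.52 below with total counts (medians -0.43 and 0.14), and 0.72 and 0.71 below in H2R-deficient cells (medians -0.62 and 0.29). Only 3 of 34 members in wild-type and 6 of 34 in H2R-deficient cells lay above the median of all genes, with either scaling. Over the same contrasts the neutrophil markers had medians of -0.85 and -1.66 under TMM and -0.29 and -0.76 with total counts, farther below the other genes than the members were. In wild-type cells the calls changed when single libraries were left out. Fewer of all genes were called as well in each such fit, and in the H2R-deficient fits named below. In several of these fits, however, the members lost a larger share of their calls than all genes did. Without high-density library 2, low-density library 2 or low-density library 4, 0 of the 5 members passed, and without high-density library 4 Glb1 and Gla did; Ctsz and Atp6v0d1 were not called there when any 1 of the 8 libraries was left out. In H2R-deficient cells 11 members fell without low-density library 2 and 14 without high-density library 1 (Ctsl, not among the 19, was called there), and the 2 that rose were called in each such fit. Asah1, Ctsb, Hexa, Npc1, Tfeb and Tpp1 were lost in both of these cases, and Ctsz and Gla in the first alone.

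**Figure D2:**
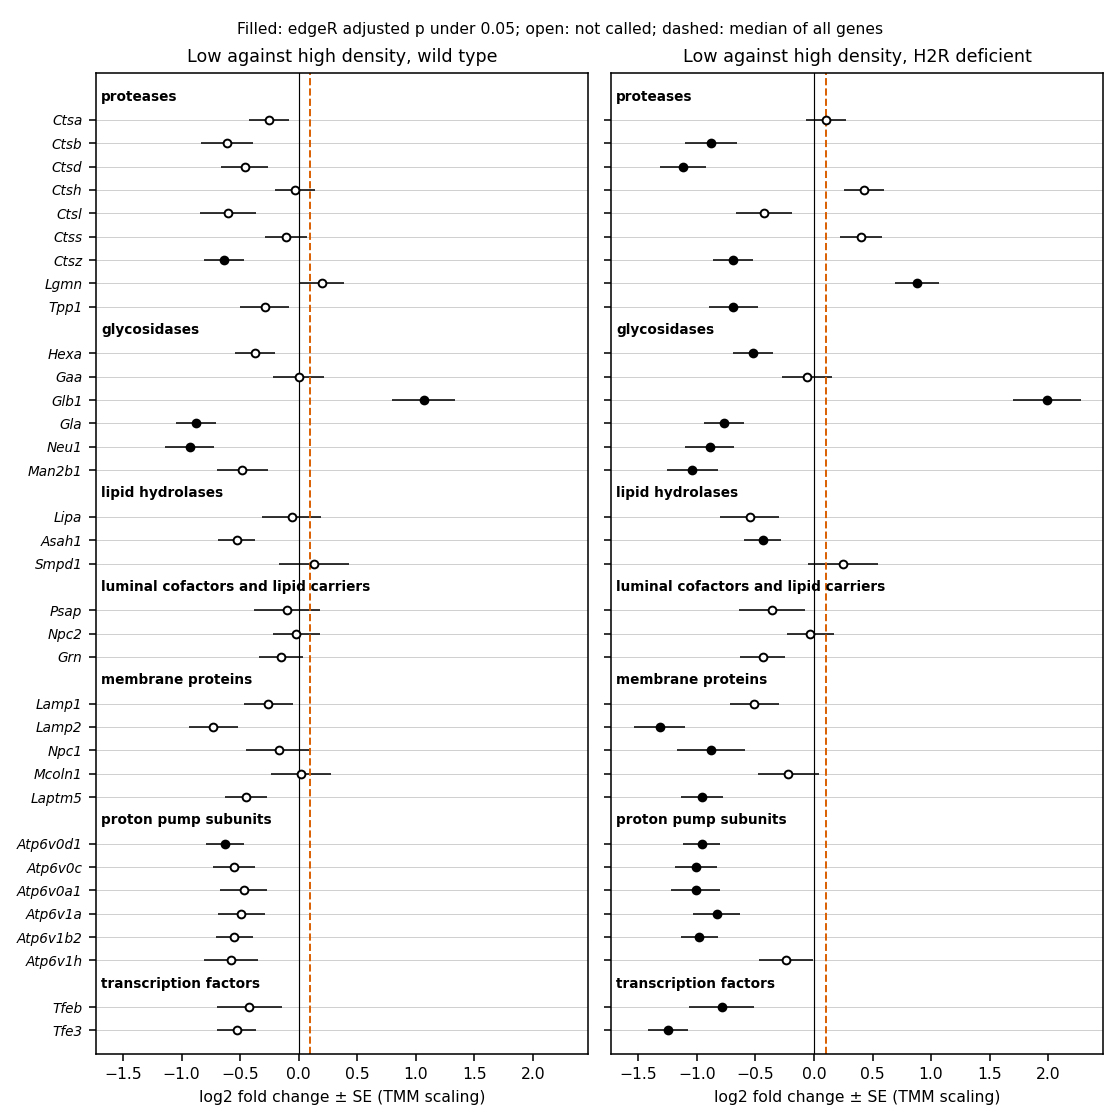
Log2 fold change of each member between low and high density, with its standard error, in wild-type (left) and H2R-deficient cells (right), on the TMM scale; filled points passed the test and the dashed line marks the median of all genes at 0.10. Most members lie left of the dashed line in both panels, and Glb1 lies farthest right at 1.07 and 1.99; with total counts the same fits gave 0 members that fell and 3 (left) and 10 (right) that rose.

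Of the 9 proteases, 4 fell and 1 rose at low density in the H2R-deficient mice under TMM scaling, and 1 fell in wild-type mice; total counts gave 0 that fell, with 4 and 2 that rose. By role the shares of all genes given above apply: in H2R-deficient cells 44.4% of proteases, 66.7% of glycosidases, 60.0% of membrane proteins and 83.3% of pump subunits fell, against 23.9% of all genes. In the smallest roles 33.3% of the 3 lipid hydrolases, 0% of the 3 luminal cofactors and lipid carriers and 100% of the 2 transcription factors fell. In wild-type cells each share rests on at most 2 calls. Ctsd, the aspartic protease cathepsin D, lay at 3206 and 2766 CPM in the H2R-deficient high-density and 1496 and 1253 in the low-density libraries, and at 1895 and 2248 against 1616 and 1391 in wild-type cells. All low-density libraries were below all high-density ones, and Ctsd fell by 1.12 ± 0.20 (log2, SE) in H2R-deficient cells (edgeR adjusted p = 0.00182), with a value of -0.21 from total counts. Ctsz, a cysteine carboxypeptidase, lay at 862 and 1022 CPM at high and 587 and 620 at low density in wild-type cells, and at 983 and 999 against 628 and 602 in H2R-deficient cells. It fell by 0.64 ± 0.17 and 0.69 ± 0.17 (edgeR adjusted p = 0.0418 and 0.00861), with -0.07 and 0.22 from total counts. Ctsb, cathepsin B, lay at 4464 and 3886 against 2499 and 2035 CPM in H2R-deficient cells and fell by 0.88 ± 0.22 (edgeR adjusted p = 0.00939), with 0.03 from total counts. Tpp1, a tripeptidyl peptidase, fell there by 0.69 ± 0.21 (edgeR adjusted p = 0.0219), with 0.22 from total counts.

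Lgmn went the opposite way. This gene for the asparaginyl endopeptidase legumain lies on chromosome 12 between 102394084 and 102439813 (GRCm38) and was at 36.5 and 40.2 CPM in H2R-deficient high-density and 67.5 and 73.6 in low-density libraries. The groups did not overlap and Lgmn rose by a log2 fold change of 0.88 ± 0.19 (edgeR adjusted p = 0.00418) under TMM and 1.78 with total counts. In wild-type cells Lgmn lay at 63.8 and 74.0 CPM at high and 89.4 and 68.5 at low density, which overlapped. The other 4 proteases were called in neither genotype under TMM scaling. Of these, Ctsh and Ctss, which encode the cathepsins H and S, had changes of 0.43 and 0.40 in H2R-deficient cells (edgeR adjusted p = 0.0510 and 0.0819) and were called higher there with total counts (1.33 and 1.30). Reads of Ctsa, Ctsb and Ctsd may be shared with genes whose exons overlap theirs, by 819, 774 and 808 bases.

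Of the 6 glycosidases 4 fell and 1 rose with low density in H2R-deficient cells under TMM scaling, and 2 fell and 1 rose in wild-type cells; total counts gave 0 that fell, with 2 and 1 that rose. Glb1, which removes galactose from glycolipids and keratan sulfate and lies on chromosome 9 between 114401076 and 114474898, rose in both genotypes by either scaling. Its level was 3.30 and 5.60 CPM at high and 8.38 and 10.3 at low density in wild-type libraries, and 2.57 and 2.49 in H2R-deficient high-density ones against 10.1 ± 0.0523 (mean ± SD, n = 2) at low density. The groups did not overlap, and the log2 fold changes were 1.07 ± 0.27 and 1.99 ± 0.29 under TMM (edgeR adjusted p = 0.0371 and 0.000703) and 1.63 and 2.90 with total counts. Glb1 shares 165 exonic bases with Tmppe on the same strand, and its change in wild-type cells was not called without wild-type high-density library 2 or without any 1 of the 4 low-density libraries.

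Gla and Neu1 fell in both genotypes under TMM scaling. Gla, alpha-galactosidase A, lay at 371 and 361 CPM at high against 194 and 204 at low density in wild-type cells, and at 311 and 350 against 213 and 176 in H2R-deficient cells. Its changes were -0.88 ± 0.17 and -0.77 ± 0.17 (edgeR adjusted p = 0.0187 and 0.00534), and -0.31 and 0.15 with total counts. Neu1, the lysosomal sialidase, lay at 239 and 341 against 151 and 153 CPM in wild-type and 196 and 231 against 104 and 126 in H2R-deficient cells. The groups did not overlap, and Neu1 had changes of -0.93 ± 0.21 and -0.89 ± 0.21 (edgeR adjusted p = 0.0273 and 0.00682), with -0.36 and 0.01 from total counts.

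Man2b1, an alpha-mannosidase that trims the sugars of glycoproteins, fell in H2R-deficient cells under TMM, from 184 and 196 to 83.8 and 101 CPM. Its change was -1.04 ± 0.22 (edgeR adjusted p = 0.00389) and -0.14 with total counts, and in wild-type cells, at 342 and 242 against 183 and 235 CPM, it was not called. Hexa, the alpha subunit of beta-hexosaminidase, had a smaller fall of 0.52 ± 0.17 in H2R-deficient cells (edgeR adjusted p = 0.0281), with 0.39 from total counts. Gaa, the acid alpha-glucosidase that degrades glycogen, was called in neither genotype under TMM and at 0.86 higher in H2R-deficient cells with total counts.

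Among the lipid hydrolases only Asah1, the acid ceramidase, was called under TMM, in H2R-deficient cells, at 50.2 and 55.7 CPM against 39.0 and 39.3. Its change was -0.44 ± 0.16 (edgeR adjusted p = 0.0441) and turned to 0.47 with total counts, where it was called higher, and in a paired fit, with library number as replicate block, it was not called (-0.43, edgeR adjusted p = 0.0715). Lipa, the acid lipase that frees cholesterol from its esters, lay at 341 and 260 against 235 and 176 CPM and had a change of -0.55 (edgeR adjusted p = 0.0860), which the replicate block called (edgeR adjusted p = 0.0489); total counts gave 0.36. None of the luminal cofactors Psap, Npc2 and Grn (the cholesterol carrier and progranulin being the latter 2) was called under TMM in either genotype. Psap lay at 4464 and 2890 CPM in the H2R-deficient high-density and 3446 and 2279 in the low-density libraries, so that the densities overlapped, and its value from total counts was 0.55.

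The membrane proteins and the pump stood lower against other genes than the hydrolases in H2R-deficient cells. Of the 5 membrane proteins 3 fell with low density there under TMM scaling and 0 were called with total counts. Lamp2, a membrane glycoprotein that also serves as the receptor of chaperone-mediated autophagy and lies on the X chromosome between 38401357 and 38456454, was at 922 and 1132 CPM in high-density and 370 and 452 in low-density libraries. It fell by 1.32 ± 0.22 (edgeR adjusted p = 0.00120), with -0.42 from total counts. In wild-type cells Lamp2 lay at 1155 and 1017 against 563 and 743 CPM, also without overlap, and its change of -0.73 ± 0.21 (edgeR adjusted p = 0.0525) passed with the replicate block (-0.74, edgeR adjusted p = 0.0285).

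Laptm5 fell from 876 and 746 to 429 and 403 CPM in H2R-deficient cells (log2 fold change -0.96 ± 0.18, edgeR adjusted p = 0.00206), with -0.06 from total counts. Npc1, which exports cholesterol from the lysosome, fell from 592 and 459 to 340 and 231 CPM (-0.88 ± 0.29, edgeR adjusted p = 0.0276), with 0.04 from total counts. Lamp1 lay at 736 and 637 against 540 and 422 CPM, without overlap, and its change of -0.51 (edgeR adjusted p = 0.0670) passed with the replicate block (-0.52, edgeR adjusted p = 0.0413), with 0.40 from total counts. Mcoln1, the lysosomal calcium channel, was not called in either genotype under either scaling.

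Of the 6 pump subunits 5 fell with low density in H2R-deficient and 1 in wild-type cells under TMM scaling, and 0 fell with total counts, where Atp6v1h rose in H2R-deficient cells. All 6 lay below 0 under TMM in both genotypes, with medians of -0.55 and -0.97, and their median was 0.64 and 1.07 below that of all genes (0.64 and 1.06 with total counts). Atp6v0d1, a subunit of the membrane sector that lies on chromosome 8 between 105524465 and 105566047, was at 328 and 355 CPM at high and 208 and 234 at low density in wild-type cells, and at 299 and 326 against 160 and 161 in H2R-deficient cells. It was the subunit called in both genotypes, at -0.63 ± 0.16 and -0.96 ± 0.16 (edgeR adjusted p = 0.0389 and 0.00145), and at -0.06 in both with total counts.

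Atp6v1b2, which forms part of the ATP-hydrolysing sector, lay at 537 and 521 CPM in H2R-deficient high-density and 275 and 260 in low-density libraries, a change of -0.98 ± 0.16 (edgeR adjusted p = 0.00128). Atp6v0c, the proton-conducting ring subunit, lay at 767 and 702 against 381 and 347 CPM, a change of -1.01 ± 0.18 (edgeR adjusted p = 0.00184). Total counts gave -0.08 and -0.10 for these genes. Atp6v0c has 2 named pseudogene copies, so its reads may be split among them. Atp6v0a1 lay at 205 and 171 against 89.4 and 97.7 CPM, without overlap. Atp6v0a1 and Atp6v1a also fell, by 1.01 ± 0.21 and 0.83 ± 0.20 (edgeR adjusted p = 0.00325 and 0.00722), against -0.11 and 0.08 with total counts. Atp6v1h, at 39.0 and 59.6 against 39.5 and 43.8 CPM, overlapped between densities and was not called under TMM.

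Tfe3 and Tfeb, which switch on lysosomal genes when they enter the nucleus, both fell at low density in H2R-deficient cells under TMM scaling and were not called with total counts (-0.35 and 0.12). Tfe3 lay at 255 and 259 CPM in high-density and 99.5 and 116 in low-density libraries, and fell by 1.25 ± 0.17 (edgeR adjusted p = 0.000592), which was the lowest adjusted p of the 34 members. In wild-type cells Tfe3 lay at 209 and 209 against 133 and 157 CPM and was not called. Tfeb lay at 134 and 90.2 against 78.9 and 50.5 CPM in H2R-deficient cells, with a change of -0.79 ± 0.28 (edgeR adjusted p = 0.0363). Transcript levels do not report where these proteins are in the cell.

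Setting hydrolases against membrane and pump genes within a library removes the scaling of libraries. The mean log2 CPM of the 18 hydrolases minus that of the 11 membrane and pump genes was -1.06 and -1.19 in wild-type high-density, -0.90 and -1.01 in wild-type low-density, -1.44 and -1.44 in H2R-deficient high-density and -0.87 and -0.83 in H2R-deficient low-density libraries. The H2R-deficient high-density libraries were the lowest and the H2R-deficient low-density ones the highest, without overlap with another group. From high to low density the difference rose by 0.59 in H2R-deficient (from -1.44 to -0.85) and by 0.17 in wild-type cells (from -1.12 to -0.95). Between genotypes it was 0.32 lower in H2R-deficient cells at high density and 0.10 higher at low density. No test was made of these values, and with the median of each role in place of the mean they were 0.38, 0.25, -0.55 and -0.43, so the sign at low density depends on that choice.

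The counts of calls per role show the same contrast in H2R-deficient cells, without its own test. There 9 of 18 hydrolases fell and 2 rose with low density under TMM scaling (median -0.48). Of 11 membrane and pump genes 8 fell and 0 rose (median -0.96), beside 23.9% of all genes that fell and 30.0% that rose. With total counts 0 of either fell, and 8 hydrolases and 1 pump gene rose, beside 51.6% of all genes. Relative to the median of all genes the 2 medians were 0.58 and 1.06 below, and 0.57 and 1.05 below with total counts. In wild-type cells the calls under TMM had the opposite order. There 16.7% of hydrolases and 9.09% of membrane and pump genes fell, against 4.15% of all genes, with medians of -0.33 and -0.49.

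**Figure D3:**
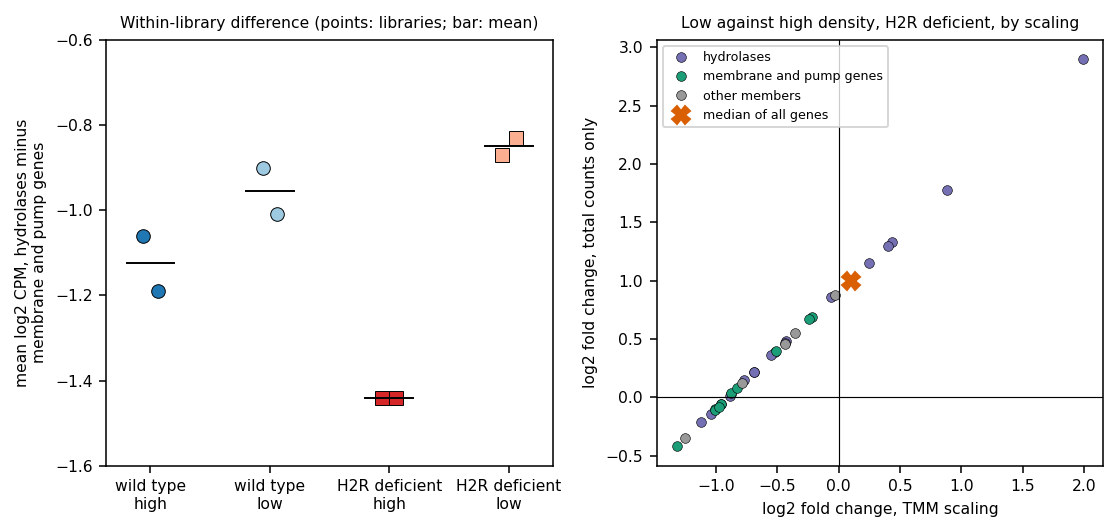
Left: mean log2 CPM of 18 hydrolases minus that of 11 membrane and pump genes in each library (points) with the group mean (bar), lowest at -1.44 in both H2R-deficient high-density libraries. Right: log2 fold change of each member between low and high density in H2R-deficient cells with TMM scaling (x axis) against total counts (y axis), where the median of all genes moves from 0.10 to 1.0. Of the members called lower under TMM 10 cross to above 0, and over all members, called or not, those below 0 go from 28 to 9.

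The effect of H2R deficiency itself was asked within each density. At high density edgeR called 0 of 34 members, against 0.208% of all genes (0.0201% higher and 0.188% lower), and 11 members had an unadjusted p under 0.05, as did 2788 of the 14909 genes. The members with the largest changes were Npc1, at 202 and 332 CPM in wild-type and 592 and 459 in H2R-deficient libraries (0.98 ± 0.29, edgeR adjusted p = 0.138), and Ctsl, which encodes cathepsin L, at 209 and 194 against 82.6 and 135 (-0.89 ± 0.24, edgeR adjusted p = 0.120). Lgmn lay at 63.8 and 74.0 against 36.5 and 40.2 CPM, with a change of -0.84 ± 0.19 (edgeR adjusted p = 0.0964). The genotypes did not overlap for these 3 genes. They were picked for their changes or p-values, and with 2 libraries per group non-overlap alone shows no genotype effect. How many of all genes lacked overlap was not counted, here or where other genes are said not to overlap. Ctsd and Ctsb, the most abundant proteases per length, were at 0.53 and 0.45, and the 9 proteases ranged from -0.89 to 0.53.

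At the same density DESeq2 called 6 members, 2 higher (Lipa 0.78, Npc1 0.97) and 4 lower (Ctsa -0.60, Ctsl -0.91, Lgmn -0.85, Asah1 -0.68), against 2.56% and 3.67% of all genes. EdgeR without the filter on low counts called 6 as well, 3 higher (Psap, Lipa, Npc1) and 3 lower (Ctsl, Lgmn, Asah1), against 1.18% and 2.72% of all genes. Limma-voom, RLE size factors and total counts called 0 members. Marker levels also differed between genotypes at this density. The macrophage markers summed to 591 and 524 CPM of all counts in wild-type and 411 and 265 in H2R-deficient libraries. Of these markers 14 of 15 had a value below 0 (median -1.48), of which Apoe was called (edgeR adjusted p = 0.0374). Eosinophil markers went from 56.4 and 48.3 to 19.5 and 20.5 CPM of all counts (median -1.24, with Siglecf called, edgeR adjusted p = 0.0458). The neutrophil markers had a median of 0.19. The part of these cells in the member values was not tested.

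At low density edgeR called 0 members, against 0% of all genes, and 8 members had an unadjusted p under 0.05, as did 3128 of all genes. Man2b1 lay at 183 and 235 CPM in wild-type and 83.8 and 101 in H2R-deficient libraries (-1.18 ± 0.22, edgeR adjusted p = 0.104), and Atp6v0a1, a subunit of the membrane sector, at 149 and 204 against 89.4 and 97.7 (-0.92 ± 0.20, edgeR adjusted p = 0.108). The genotypes did not overlap for either gene, which alone shows no genotype effect with 2 libraries per group. DESeq2 called 4 members lower (Man2b1 -1.17, Asah1 -0.56, Lamp2 -0.66, Atp6v0a1 -0.91) against 4.89% of all genes, and edgeR without the filter 3 (Ctsl, Man2b1, Atp6v0a1) against 2.60%. At this density all 8 B cell markers had values above 0 between genotypes (median 1.54). The B cell markers summed to 507 and 207 CPM of all counts in wild-type and 1093 and 1252 in H2R-deficient libraries. All 11 neutrophil markers had values below 0 (median -0.71), with 0 called by edgeR in either list. The part of these cells in the member values was not tested.

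**Figure D4:**
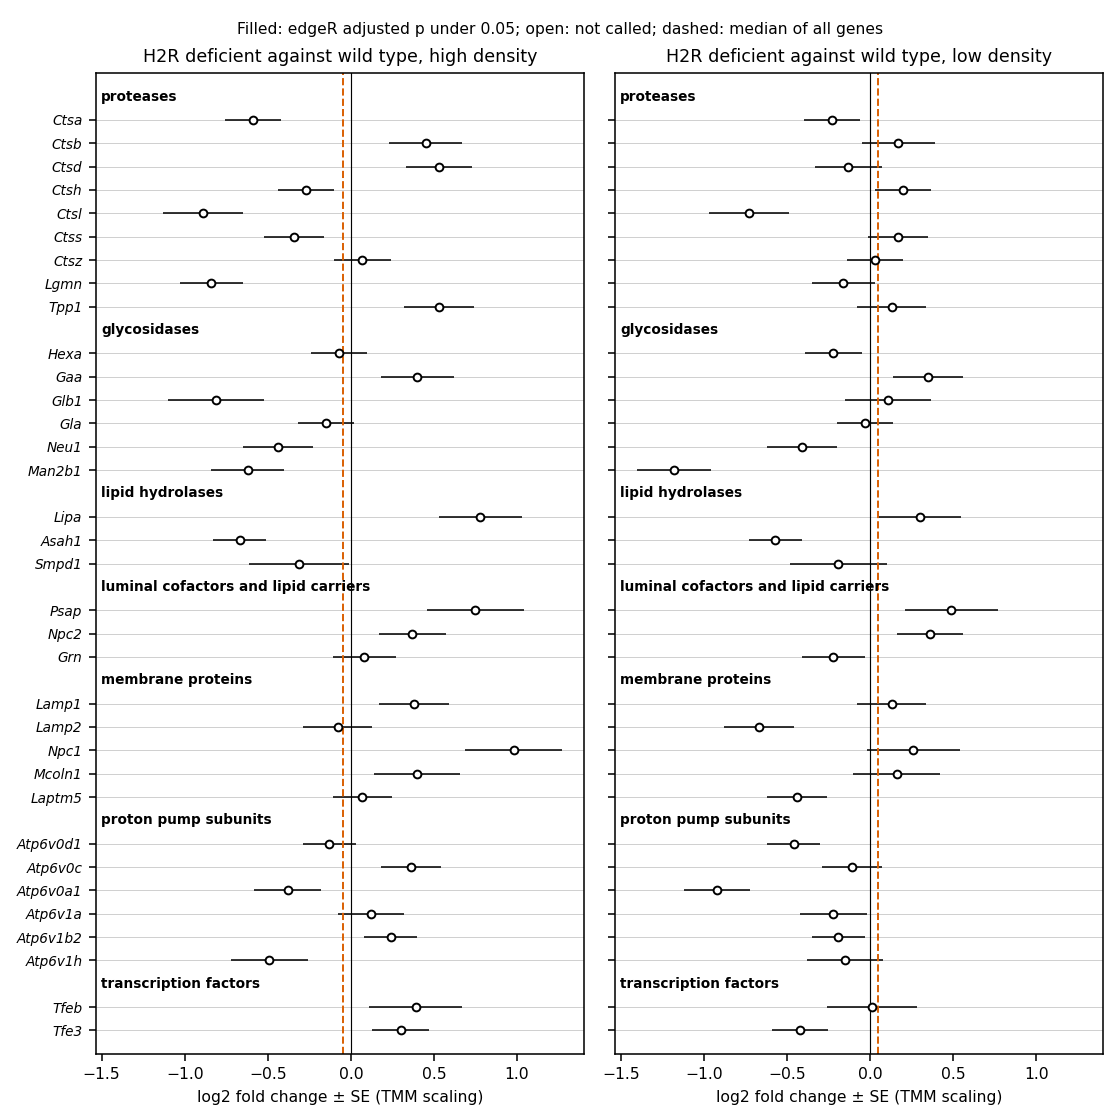
Log2 fold change of each member between H2R-deficient and wild-type cells with its standard error, at high density (left) and low density (right), on the TMM scale; the dashed line marks the median of all genes (-0.05 and 0.05). All points are open, since edgeR called 0 members in either panel; Npc1 lies farthest right at high density (0.98) and Man2b1 farthest left at low density (-1.18).

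Whether the density effect differed between genotypes was tested as an interaction, and 0 members were called by edgeR, against 0% of all genes, with 4 members and 3150 genes at an unadjusted p under 0.05. DESeq2 called 0 members and 946 genes. The lowest adjusted p was that of Tfe3, with a difference of -0.72 ± 0.24 between its density effects (edgeR adjusted p = 0.144), followed by values of 0.68 ± 0.26 for Lgmn and 0.92 ± 0.39 for Glb1 (edgeR adjusted p = 0.186 and 0.220). The larger number of members called in H2R-deficient than in wild-type cells was thus not shown to be a difference between the genotypes.

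Other genes of the pathway were counted in lists that hold no member. Their calls with total counts stand beside 51.6% of all genes higher and 2.61% lower in H2R-deficient cells. In wild-type cells those shares were 32.3% and 0.832%. Of 16 other pump subunits 14 were tested, and 9 of these fell and 0 rose in H2R-deficient and 4 fell in wild-type cells under TMM, where with total counts 0 fell and 1 rose in each. The falls were 64.3% and 28.6% of those tested, against 23.9% and 4.15% of all genes. Atp6v1d and Atp6v1g1, subunits of the stalk, lay at 208 and 261 CPM against 97.8 and 113 and at 276 and 246 against 127 and 124, with changes of -1.16 ± 0.20 and -1.06 ± 0.17 (edgeR adjusted p = 0.00159 and 0.00107), and -0.25 and -0.15, not called, with total counts. Of 31 other hydrolases 5 rose and 7 fell in H2R-deficient cells (16 and 1 with total counts), which is 16.1% and 22.6% of the list against 30.0% and 23.9% of all genes. Scpep1, a serine carboxypeptidase, went from 5.66 and 6.69 to 40.2 and 48.6 CPM, a change of 2.84 ± 0.24 (edgeR adjusted p = 0.000189) and 3.74 with total counts, and Ppt1, a thioesterase that removes palmitate from proteins, went from 201 and 204 to 71.5 and 84.6, a change of -1.38 ± 0.17 (edgeR adjusted p = 0.000367). Ppt1 also fell with total counts (-0.48, edgeR adjusted p = 0.0279).

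Of 21 other membrane and channel genes 4 rose and 9 fell in H2R-deficient cells (10 and 0 with total counts), or 19.0% and 42.9% of the list against 30.0% and 23.9% of all genes, and 0 were called in wild-type cells (4 rose with total counts). Abca2, a lipid transporter, had a change of 1.36 ± 0.25 and Cln3, a lysosomal membrane protein mutated in a childhood storage disease, one of -1.13 ± 0.17 (edgeR adjusted p = 0.00191 and 0.000899). Total counts gave 2.27 for Abca2 and -0.23, not called, for Cln3.

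Among 9 sorting genes, which route enzymes to the lysosome, 3 rose and 3 fell in H2R-deficient cells (6 and 0 with total counts), each 33.3% of the list against 30.0% and 23.9% of all genes. Gnptab, which makes the mannose-phosphate tag of the hydrolases, rose by a log2 fold change of 1.34 ± 0.19 and Gga2, an adaptor that sorts tagged enzymes, by 1.94 ± 0.29 (edgeR adjusted p = 0.000697 and 0.000777), with 2.25 and 2.84 from total counts. Sort1, the receptor sortilin, had a change of -1.33 ± 0.31 (edgeR adjusted p = 0.00638) and -0.43, not called, with total counts. Of 17 genes of the TFEB family and its control by mTORC1, a kinase complex that keeps TFEB in the cytosol, 4 rose and 8 fell there (8 and 0 with total counts), or 23.5% and 47.1%. Mlst8, a subunit of that complex, had a change of 1.94 ± 0.33, and Fnip1 and Flcn, which form the folliculin complex, had -1.15 ± 0.18 and -0.99 ± 0.18 (edgeR adjusted p = 0.00144, 0.000965 and 0.00212). With total counts Mlst8 was at 2.84 and called, and Fnip1 and Flcn were at -0.24 and -0.08 and not called. Of 7 cathepsin inhibitors 5 fell and 1 rose (1 and 2 with total counts), or 71.4% and 14.3%, and Stfa2l1 and Stfa1, stefins with near-identical copies among which reads may be split, had changes of -1.83 ± 0.26 and -1.63 ± 0.30 (edgeR adjusted p = 0.000613 and 0.00195). Total counts gave -0.94, called, for Stfa2l1 and -0.74, not called, for Stfa1. In wild-type cells 1 other hydrolase rose and 1 fell (Scpep1 and Ppt1), 1 sorting gene rose (Gga2), 1 gene of the TFEB list rose and 2 fell (Mlst8, Fnip1 and Flcn), and 1 inhibitor fell (Stfa2l1); with total counts 8, 4, 6 and 0 genes of these lists rose and 0 fell.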

How the data were processed

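Per the file headers, the deposited values are raw counts of reads per gene in the layout of featureCounts. Tools named in the submitters' processing notes are bcl2fastq 2.17.1.14, Trimmomatic 0.36, STAR 2.5.2b and featureCounts from Subread 1.5.2, with the genome build GRCm38. For the strand setting, multimapping reads and the annotation release the sources used here give nothing, so reads of members whose exons overlap another gene (10 of 34) are uncertain.

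Gene symbols came from GENCODE M21, which matched 49056 of 49315 identifiers and left 259 unmatched. Genes were kept with filterByExpr by group, scaled by TMM and tested with edgeR's robust quasi-likelihood F test on all 8 libraries with 1 mean per group (edgeR 4.0.16 in R 4.3.3). The residual degrees of freedom were 4, and the common biological coefficient of variation was 0.236. Benjamini-Hochberg adjustment ran over all 14909 genes, and an adjusted p under 0.05 was called. The standard error is the log2 fold change over the square root of its F statistic. Role means used log2 CPM with a prior count of 0.5. A count of 0 allows up to 0.124 to 0.151 CPM, taking 3 counts as the floor, for counting error only. The procedure was tested on simulated data in which only a small part of the genes changed, so that test does not bear on the scaling between densities.

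High-density and low-density libraries with the same number deviated together from their group means (r across genes 0.155 for wild type, 0.326 for H2R deficient). With 2 libraries per group the opposite pairing gives the same r with its sign reversed, so this does not show that equal numbers mark pairs. The number was used as a replicate block in an alternative fit of the density contrasts. The libraries of each group differed by more than sampling noise (chi-square over its degrees of freedom 33.7 to 53.5), and none was treated as a copy. Other alternatives were DESeq2 1.42.0, limma-voom (limma 3.58.1), RLE size factors, total counts without scaling, no filter on low counts, the compared groups fitted alone, and leaving out each of the 8 libraries. The members, their roles and all gene lists were chosen with earlier results of these data known. Members called are named with values, and of the other pathway lists up to 2 genes per direction with the lowest adjusted p in H2R-deficient cells.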

Additional observations from a re-analysis of the deposited data

How the results depend on the processing

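Scaling by total counts ended all called falls of members between densities, and in wild-type cells the 5 members called under TMM kept their sign. With total counts, 3 members rose and 0 fell with low density in wild-type cells and 10 rose and 0 fell in H2R-deficient cells. Of the 21 members called under TMM in H2R-deficient cells, 10 changed sign: Ctsb (0.03), Ctsz (0.22), Tpp1 (0.22), Hexa (0.39), Gla (0.15), Neu1 (0.01), Asah1 (0.47), Npc1 (0.04), Atp6v1a (0.08) and Tfeb (0.12), all log2. Over all 34 members, called or not, those below 0 went from 28 to 9 there and from 30 to 8 in wild-type cells. Of the falls in wild-type cells, 4 under TMM, DESeq2 called 13, RLE size factors 9 and the compared groups fitted alone 1. The rise of Glb1 was not called in the last (0 rises). Calls over all genes, in either direction, moved the same way: 1888 with TMM and edgeR, 2717 with DESeq2, 2058 with RLE and 608 with the groups fitted alone. In H2R-deficient cells the groups fitted alone gave 4 rises, with 8119 of all genes called in either direction against 8044 in the main fit. With single libraries left out, wild-type calls ranged from 0 to 1 rise and 0 to 2 falls, and H2R-deficient falls from 11 to 19. Over all genes, wild-type calls also dropped in each of these fits. Between genotypes at high density, where TMM and edgeR called 0, DESeq2 called 2 higher and 4 lower and edgeR without the filter 3 higher and 3 lower; at low density they called 4 and 3 lower. With the replicate block 1 rise and 5 falls were called in wild-type and 2 rises and 20 falls in H2R-deficient cells, beside 2620 and 8450 of all genes in either direction. The block changed no member call other than those of Lamp2, Asah1, Lamp1 and Lipa. Within libraries, medians in place of means gave hydrolases minus membrane and pump genes at 0.38 for density in H2R-deficient cells and -0.55 (high density) and -0.43 (low density) between genotypes, and leaving out a library gave 0.10 to 0.23 for density in wild-type cells. Members lay at 39 counts or more, so depth limited no member's detection; 2 libraries per group and 4 residual degrees of freedom limited the tests. Apart from the scaling by construction, the cause of these changes was not tested.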
